A study of Homo sapiens with 2 samples.

Results

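Ubiquitin is a small protein that is joined to other proteins and marks many of them for the proteasome. Cells make it as precursors: UBB encodes a head-to-tail chain of ubiquitin units and is known as a stress-responsive polyubiquitin gene, whereas RPS27A encodes 1 ubiquitin unit fused to a ribosomal protein. SUMO2, SUMO3 and NEDD8 encode relatives of ubiquitin that are joined to proteins by enzymes of their own, and UBA1 encodes the main enzyme that activates ubiquitin (an E1 enzyme). The 6 genes described here, UBB, RPS27A, UBA1, SUMO2, SUMO3 and NEDD8, were matched by symbol to the identifiers in the tables, and all 6 were found among the 57736 genes listed.

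Poly(A)+ RNA was sequenced from HEK293T, an established human embryonic kidney line labelled as wild type. By the labels, the cells were heated at 43 °C for 20 min and left to recover at 37 °C for 6 h. Both libraries, replicate 1 and replicate 2, belong to this 1 heat shock group, and untreated cells were not analysed here, so the values describe the recovered cells only and no effect of the heat was measured. Cells of each replicate were lysed apart, but no source says that they came from separate cultures, so the libraries may be technical replicates. Replicate 1 held 22529828 expected counts and replicate 2 held 26890199, and where a gene had 0 counts its true level could reach 3 counts, or 0.133 and 0.112 CPM (counts relative to library size). These limits cover counting error only. Of 14 genes taken as kidney markers, 13 were matched, and 3 passed a TPM of 1 in each library (KRT18, PAX2 and LRP2), beside 26.3% of all listed genes. The summed level of all 13 was 71.9 TPM in replicate 1 and 61.0 in replicate 2, and CDH16, a kidney cadherin, was listed at 0.

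The sequences below show why UBB and RPS27A can be told apart by 50-base reads although they encode the same protein unit. UBB holds 3 ubiquitin units of 228 bases in a single coding exon (chr17:16285222-16285908, plus strand, GRCh37). The unit of RPS27A spans several exons between 55459961 and 55462005 of chromosome 2, and the stretch of NEDD8 that corresponds to a ubiquitin unit lies between 24686351 and 24701473 of chromosome 14, on the minus strand. They are written 5′ to 3′ from the coding strand of the GENCODE reference transcripts, and capitals mark each base that differs from the first unit of UBB.
UBB unit 1: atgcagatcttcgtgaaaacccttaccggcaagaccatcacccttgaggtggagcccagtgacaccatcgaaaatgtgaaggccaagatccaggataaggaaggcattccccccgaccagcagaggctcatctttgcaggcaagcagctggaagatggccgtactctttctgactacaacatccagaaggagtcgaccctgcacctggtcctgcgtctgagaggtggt
UBB unit 2: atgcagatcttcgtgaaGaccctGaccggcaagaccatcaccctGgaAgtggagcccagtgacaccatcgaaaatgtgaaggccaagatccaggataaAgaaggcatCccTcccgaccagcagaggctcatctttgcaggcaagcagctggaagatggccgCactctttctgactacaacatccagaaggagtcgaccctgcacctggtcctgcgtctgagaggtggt
UBB unit 3: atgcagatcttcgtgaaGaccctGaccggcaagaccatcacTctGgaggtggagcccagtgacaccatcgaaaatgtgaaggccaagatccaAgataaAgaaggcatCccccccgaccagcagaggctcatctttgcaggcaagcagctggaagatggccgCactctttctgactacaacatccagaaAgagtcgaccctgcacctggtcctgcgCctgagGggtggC
RPS27A unit: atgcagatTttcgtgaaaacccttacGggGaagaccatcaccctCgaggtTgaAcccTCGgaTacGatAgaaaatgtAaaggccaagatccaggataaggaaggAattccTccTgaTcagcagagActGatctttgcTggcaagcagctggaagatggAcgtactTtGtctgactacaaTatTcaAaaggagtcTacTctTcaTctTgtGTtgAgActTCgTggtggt
NEDD8 stretch: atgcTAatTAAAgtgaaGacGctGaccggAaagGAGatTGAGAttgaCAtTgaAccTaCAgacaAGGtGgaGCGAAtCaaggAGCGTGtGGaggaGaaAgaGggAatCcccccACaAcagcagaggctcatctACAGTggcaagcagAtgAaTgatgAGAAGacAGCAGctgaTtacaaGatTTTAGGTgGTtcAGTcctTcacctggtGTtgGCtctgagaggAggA

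The second unit and the third unit of UBB differed from the first at 8 and 12 bases, all at the third position of a codon. The RPS27A unit differed at 38 bases, 32 of them at that same position, and was 83.3% identical to the first UBB unit. NEDD8, a distinct protein, was 60.5% identical over the same length. The longest run of identical bases was 26 between the RPS27A unit and the first unit of UBB, so no 50-base sequence was common to both. Over all transcripts in the tables, none of the 1607 distinct 50-base sequences of UBB occurred in RPS27A. The units of UBB did share such sequences with each other, from 4 to 28 of 179, but these lie within 1 gene and cannot move reads between genes.

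UBB was the highest of the 6 members in both libraries. UBB (ENSG00000170315; chromosome 17, 16284112 to 16286059, plus strand) had 3137 TPM in replicate 1 and 2672 TPM in replicate 2, where TPM gives a level per transcript length, relative to the library total. The mean was 2905 ± 329 TPM (SD, n = 2), which ranked it 33rd in the whole table. It held 38331 and 37178 expected counts, with a posterior SD (the quantifier's own uncertainty, which arises where reads fit several genes) of 203 and 202 reads. The quantifier's bounds for its TPM, 2997 to 3085 in replicate 1 and 2562 to 2638 in replicate 2, did not overlap between the libraries and lay below the level used here in each of them. UBB made up 65.7% and 62.3% of the summed TPM of the members.

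RPS27A, whose ribosomal part is a protein of the small subunit, was among the lowest members. RPS27A (ENSG00000143947; chromosome 2, 55459039 to 55462989, plus strand) had 151 TPM in replicate 1 and 155 TPM in replicate 2, a mean of 153 ± 2.83 TPM (SD, n = 2), on 1748 and 2040 expected counts. UBB was thus 20.8-fold above RPS27A in replicate 1 and 17.3-fold above it in replicate 2, a log2 difference of 4.24 ± 0.19 (SD, n = 2). No test between genes was run on 2 values. The ranges were far apart.

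**Figure D1:**
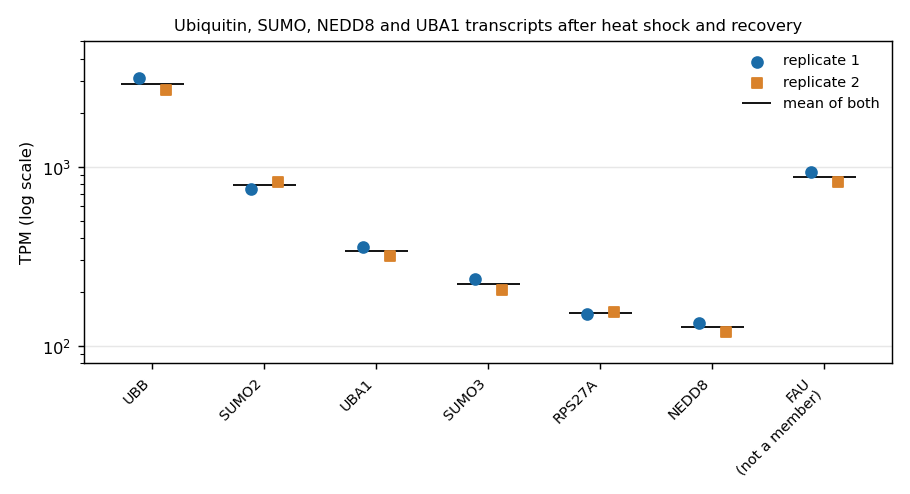
TPM (log scale) of the 6 members and of FAU, with a point for each library and a line at their mean. UBB lies near 2905 TPM, RPS27A near 153 and NEDD8 near 127, and the ranges of the members do not overlap.

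RPS27A was also low among the genes of the small ribosomal subunit. It ranked 30th of 32 such genes in both libraries, 5.57-fold below their median of 841 TPM in replicate 1 and 4.63-fold below their median of 717 TPM in replicate 2. Only RPS26 (21.1 and 18.04 TPM) and RPS28 (12.4 and 8.73 TPM) were lower. RPS2 was the highest at 7213 TPM on average, and RPS3 had 4124 TPM. FAU, the other small-subunit gene that encodes a fusion with a ubiquitin-like domain, had 938 and 825 TPM and was 6.22-fold and 5.32-fold above RPS27A. Without scaling to length, in CPM, RPS27A ranked 29th in both libraries.

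**Figure D2:**
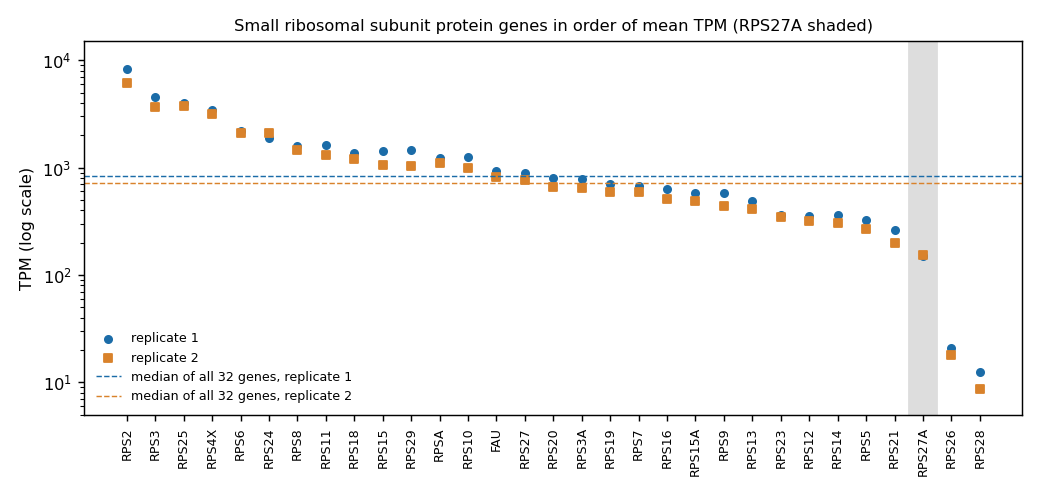
TPM (log scale) of 31 of the 32 small ribosomal subunit protein genes in each library, ordered by mean, with a dashed line at the median of all 32 in each library. RPS27A is shaded, and its 151 and 155 TPM lie below medians of 841 and 717 TPM.

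Among the relatives of ubiquitin, SUMO2 was the highest member. SUMO2 (ENSG00000188612; chromosome 17, 73161681 to 73179054, minus strand) had 756 TPM in replicate 1 and 822 TPM in replicate 2 (789 ± 46.7, SD, n = 2). SUMO3 (ENSG00000184900; chromosome 21, 46225532 to 46238694, minus strand), which encodes a near-identical modifier, had 237 and 205 TPM (221 ± 22.9, SD, n = 2). SUMO2 was 3.18-fold above SUMO3 in replicate 1 and 4.005-fold in replicate 2, a log2 difference of 1.84 ± 0.23 (SD, n = 2). SUMO4 had 0 counts in replicate 1 and 16.04 in replicate 2, or 0 and 1.22 TPM.

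The aligned coding stretches of SUMO2 and SUMO3, the longest without a gap, show how far reads of these paralogs can be told apart. SUMO2 is read from coding base 43 to 285 (exons between 73164437 and 73177262 of chromosome 17) and SUMO3 from 40 to 282 (between 46226896 and 46234001 of chromosome 21). Capitals mark the bases that differ between the genes.
SUMO2 stretch: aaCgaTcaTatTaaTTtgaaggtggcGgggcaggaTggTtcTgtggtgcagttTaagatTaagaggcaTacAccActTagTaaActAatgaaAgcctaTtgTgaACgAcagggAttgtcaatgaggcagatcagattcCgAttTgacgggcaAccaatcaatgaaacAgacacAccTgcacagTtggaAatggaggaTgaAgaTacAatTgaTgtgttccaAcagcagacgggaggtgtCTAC
SUMO3 stretch: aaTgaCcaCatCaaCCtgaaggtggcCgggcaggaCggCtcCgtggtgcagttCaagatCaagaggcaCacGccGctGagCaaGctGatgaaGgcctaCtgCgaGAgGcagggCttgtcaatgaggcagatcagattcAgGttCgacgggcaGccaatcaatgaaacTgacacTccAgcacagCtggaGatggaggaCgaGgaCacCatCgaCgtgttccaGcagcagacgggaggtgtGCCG

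The stretches differed at 46 of 243 bases, 40 of them at the third position of a codon, and were 81.1% identical. Their longest identical run was 24 bases, less than a read. The posterior SD of SUMO3 was 0 reads in both libraries, and that of SUMO2 was 61.2 and 62.7 reads on 8937 and 11041 expected counts.

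NEDD8, which activates cullin ubiquitin ligases when joined to them, was the lowest member. NEDD8 (ENSG00000129559; chromosome 14, 24686063 to 24701573, minus strand) had 135 TPM in replicate 1 and 120 TPM in replicate 2 (127 ± 10.3, SD, n = 2). SUMO3 was 1.76-fold and 1.71-fold above it. RPS27A was 1.12-fold and 1.29-fold above it, a log2 difference of 0.27 ± 0.14 (SD, n = 2). The TPM values of NEDD8 in the 2 libraries did not overlap those of RPS27A, but these members were the closest pair. In replicate 1 the quantifier's bounds did overlap, with 125 to 140 TPM for NEDD8 and 138 to 155 TPM for RPS27A. In replicate 2 they were apart, at 112 to 126 and 144 to 159 TPM.

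UBA1 stood in the middle of the members. UBA1 (ENSG00000130985; chromosome X, 47050260 to 47074527, plus strand) had 357 TPM in replicate 1 and 317 TPM in replicate 2 (337 ± 28.4, SD, n = 2). Among 10 E1 enzymes it was the highest, 1.49-fold and 1.48-fold above SAE1, a subunit of the E1 for SUMO. UBA2, the other subunit of the SUMO E1, had 211 and 245 TPM. UBA6, the other E1 for ubiquitin, had 25.3 and 52.3 TPM, so UBA1 was 14.1-fold above it in replicate 1 and 6.06-fold in replicate 2. UBA1 transcripts are long, and in CPM it passed SUMO2, with 972 and 813 CPM against 397 and 411.

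The order of the members was UBB, SUMO2, UBA1, SUMO3, RPS27A and NEDD8 in both libraries. No neighbours in this order overlapped in their TPM values of the 2 libraries. The quantifier's bounds of RPS27A and NEDD8 did overlap in replicate 1. For background, 26.3% of all listed genes were detected, which meant a TPM of 1 or more in both, and all 6 members were. The genes outside the lists with the most similar levels over the 2 libraries, by Euclidean distance of log2(TPM + 1), were RPL8 and RPL37A for UBB, SUPT5H and PSAT1 for RPS27A, and UQCRHL and SLC25A5 for UBA1. For SUMO2 they were CANX and RBMX, for SUMO3 GPI and STK25, and for NEDD8 AKR1B1 and PSMA7.

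Several members share sequence with other genes, and the quantifier divides such reads. UBB overlaps a lncRNA gene on the opposite strand, ENSG00000265401 (chromosome 17, 16285466 to 16285983), which was singled out after its values were seen. Of the 50-base sequences of UBB, 22.8% occurred in that gene on the opposite strand. It held 2618 and 3185 expected counts (348 and 372 TPM). Its posterior SD of 203 and 202 reads equalled that of UBB to 3 digits. No source says whether counting used strand, so reads from the overlap may have been divided between UBB and this antisense gene, whereas the other 50-base sequences of UBB do not occur in it. The posterior SD of UBB was 0.529% and 0.542% of its count. With the TPM of this antisense gene added to UBB, an alternative added after seeing the data, the log2 difference between UBB and RPS27A was 4.41. That TPM is scaled to a length of 461 bases, against 718 for UBB, so the same reads would add less to UBB. The 5 pseudogenes of UBB held 0.105% and 0.120% of its count, and UBBP4, which shares 10.0% of the 50-base sequences, held 31.9 and 30.4 counts.

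RPS27A had 19 pseudogenes in the tables, 7 of them with a count, and together they held 9.70% and 6.68% of its own count. RPS27AP16, on chromosome 16, was the highest, with 164 and 117 counts. Its posterior SD was 20.17 and 17.95 reads, beside 20.22 and 17.98 for RPS27A itself. With all pseudogenes added, RPS27A had 169.5 TPM in replicate 1 and 169.0 TPM in replicate 2, still far below the median of its ribosomal list. This sum holds only reads assigned to the listed genes, and whether other reads of RPS27A were lost was not tested.

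SUMO2 likewise had 19 pseudogenes, 9 with a count, at 5.12% and 2.92% of its own count. SUMO2P1, on chromosome 6, held 438 and 306 counts, and its posterior SD was 61.3 and 62.5 reads. NEDD8 had 1 pseudogene with no count and a readthrough gene, NEDD8-MDP1, that joins it to the neighbouring gene. NEDD8-MDP1 held 255 and 315 counts, or 15.2% and 18.4% of the NEDD8 count, and 26.8 and 28.5 TPM. UBA1 and SUMO3 had no pseudogene by symbol and no readthrough gene.

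**Figure D3:**
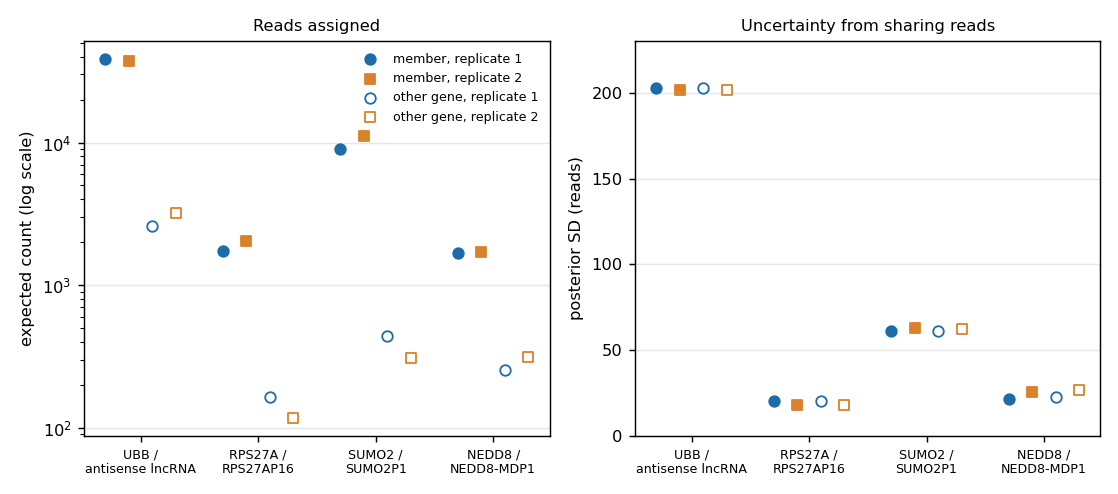
Expected counts (log scale, left) and posterior SD in reads (right) of 4 members, filled, and of a gene that shares sequence with each, open, in both libraries. In each pair the posterior SDs nearly coincide, at about 203 and 202 reads for UBB and its antisense gene, while the counts differ by more than 5-fold.

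The libraries were then compared gene by gene, to ask how far the members' levels differed beyond counting noise. The exact two-sided binomial test on rounded counts, with library scaling by TMM and Benjamini-Hochberg adjustment, compared these 2 libraries and not conditions. Its p-values cover counting error only, since the test treats reads as independent molecules and includes no spread between replicates. They also leave out the uncertainty in assigning reads to genes, a posterior SD of 203 and 202 reads for UBB. It called 43.1% of 19714 genes at an adjusted p of 0.05, 20.9% as higher in replicate 2 and 22.2% as higher in replicate 1. Of the members, 4 of 6 were called, all of them higher in replicate 1.

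UBB had a log2 ratio of replicate 2 over replicate 1 of -0.35 (exact binomial test, adjusted p = 6.23e-238), or 0.786-fold. SUMO3 had a log2 ratio of -0.34 (exact binomial test, adjusted p = 3.93e-28). UBA1 had a log2 ratio of -0.31 (exact binomial test, adjusted p = 1.00e-106) and NEDD8 one of -0.27 (adjusted p = 2.22e-07). RPS27A, at -0.08, was not called (exact binomial test, adjusted p = 0.165). SUMO2, at 0.0012, was not called either (exact binomial test, adjusted p = 1), but it was called as higher in replicate 2 with library totals in place of TMM (log2 ratio 0.05, adjusted p = 0.0387), as were 23.5% of all genes tested under that scaling. The largest shift, that of UBB, was small beside its distance from the other members. When edgeR's exact test allowed for an assumed biological coefficient of variation of 0.1, 0 of 6 members and 7.24% of all genes passed, with adjusted p from 0.410 for UBB to 1 for SUMO2 and with 0 of 6 under 0.05 before adjustment.

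The ratio between the libraries moved with the GC content of the transcripts, and each member lay below the median of genes of like GC content. For UBB, with a GC content of 52.6%, the median log2 ratio of 849 genes within 1 percentage point was -0.15. UBA1, at 56.3% GC, stood beside a median of -0.22, and SUMO3, at 50.5% GC, beside one of -0.11. NEDD8 at 46.8% GC, RPS27A at 45.6% and SUMO2 at 44.6% stood beside medians of -0.0037, 0.05 and 0.11. With the GC trend removed, 26.7% of 19242 genes were called, 13.2% as higher in replicate 1 and 13.4% as higher in replicate 2. All 6 members were then called by the exact binomial test as higher in replicate 1, with log2 ratios from -0.09 for UBA1 to -0.28 for NEDD8. SUMO2 changed sign there, to -0.10 (exact binomial test, adjusted p = 9.64e-06), and RPS27A reached -0.13 (adjusted p = 0.0288).

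**Figure D4:**
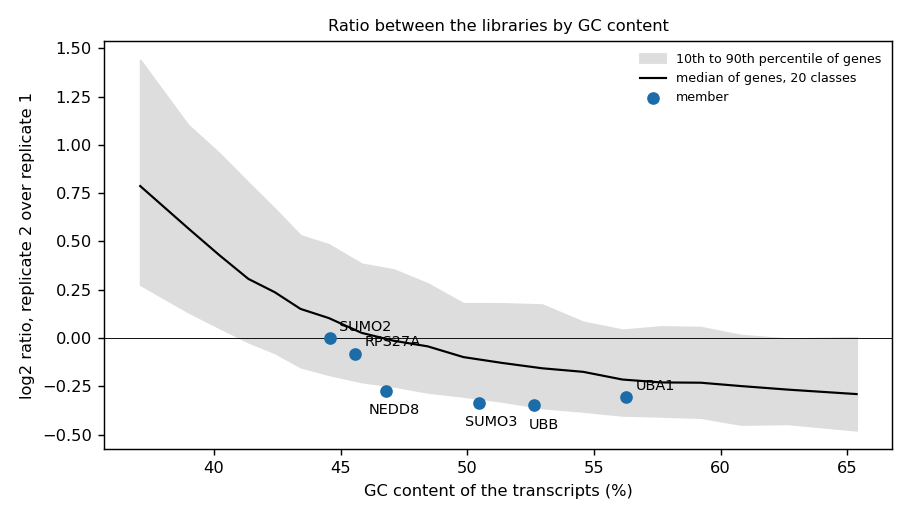
Log2 ratio of replicate 2 over replicate 1 (TMM-scaled) against GC content in percent, with the median and the range from the 10th to the 90th percentile of genes with at least 100 counts in 20 classes. The 6 members lie below the median line at their GC content, for example UBB at -0.35 and a GC content of 52.6%.

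The other genes of the pathways were taken from 7 lists of ubiquitin, SUMO and NEDD8 genes, 109 in all with the members, of which 104 were detected in both libraries. Without the members, 74 of 100 tested genes were called, beside 43.1% of all genes, 36 as higher in replicate 2 and 38 as higher in replicate 1. With library totals that order turned to 40 and 33, as it did over all genes, to 4624 and 3553 of 19714. Their median log2 ratio was 0.01, against -0.0013 over all genes tested. The median level of these genes was 49.8 TPM. Over all 57736 listed genes it was 0.04 TPM, but most of those had too few counts to be tested. That median is therefore not the level of the 19714 tested genes behind the 43.1%. The part of level in the share called was not tested. With the GC trend removed, 57 were called, 12 as higher in replicate 2 and 45 as higher in replicate 1, so no direction is drawn from the counts of each list below. The shares of all genes called, 20.9% as higher in replicate 2 and 22.2% as higher in replicate 1, or 13.4% and 13.2% with the GC trend removed, stand beside each of these counts. Counts with library totals stand beside the 4624 and 3553 of all genes. The largest ratio of a list is that among genes with at least 100 counts.

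Among 18 ubiquitin-like modifiers, 15 were detected, and of 16 tested 4 were called as higher in replicate 2 and 9 as higher in replicate 1 (2 and 10 with the GC trend removed). FAU and SUMO2 were the highest, followed by GABARAP, an autophagy modifier, at 360 and 307 TPM. UFM1, the modifier of ufmylation, had the largest ratio among genes with at least 100 counts, with 14.8 TPM in replicate 1 and 30.7 in replicate 2 (log2 ratio 0.98). UBD, MAP1LC3A and SUMO4 were not detected, with UBD listed at 0 and 0.09 TPM. MAP1LC3A and SUMO4 are named here after their values were seen.

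Of 32 genes listed as ubiquitin-conjugating (E2) enzymes or as E2 variants, such as UBE2V1 and UBE2V2, 31 were detected. The test called 9 as higher in replicate 2 and 15 as higher in replicate 1. These counts were 2 and 17 with the GC trend removed and 12 and 13 with library totals. UBE2S, which extends ubiquitin chains, was the highest at 747 and 619 TPM, above UBE2V1 at 439 and 429 and UBE2D3 at 310 and 340. UBE2V2 had the largest ratio, with 43.5 and 66.9 TPM (log2 ratio 0.60), and UBE2U was listed at 0 in both libraries. UBB was therefore above each gene of this list.

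All 14 genes of the SUMO pathway were detected, 7 called as higher in replicate 2 and 4 as higher in replicate 1 (3 and 3 with the GC trend removed). The lowest and the most different between libraries was SENP7, a SUMO protease, with 2.74 TPM in replicate 1 and 8.78 TPM in replicate 2 (log2 ratio 1.48). All 27 genes of the NEDD8 pathway were detected as well, 11 called as higher in replicate 2 and 7 as higher in replicate 1, an order that turned to 3 and 8 with the GC trend removed. UBE2M, an E2 for NEDD8, had 302 and 270 TPM, which was above NEDD8 itself, while GPS1 and COPS6, subunits of the COP9 signalosome that removes NEDD8 from cullins, had 144 and 86.5 TPM on average. CUL5, a cullin, had the largest ratio, with 13.4 and 34.6 TPM (log2 ratio 1.37), and DCUN1D3 was the lowest at 1.52 and 1.94 TPM.

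Among 10 E1 enzymes, 9 were detected, 4 called as higher in replicate 2 and 3 as higher in replicate 1 (3 and 4 with the GC trend removed). UBA6 had the largest ratio (log2 ratio 1.02) and UBA7, the E1 for the interferon-induced modifier ISG15, was the lowest at 0.62 and 1.21 TPM. All 8 proteases that release or recycle ubiquitin were detected, 3 called as higher in replicate 2 and 2 as higher in replicate 1, an order that turned to 0 and 7 with the GC trend removed. UCHL1, a ubiquitin hydrolase abundant in neurons, led them with 397 and 367 TPM, followed by USP5 at 150 and 122 and USP7 at 114 and 133. UCHL5 had the largest ratio (log2 ratio 0.58) and OTULIN was the lowest, at 21.2 and 20.0 TPM.

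**Figure D5:**
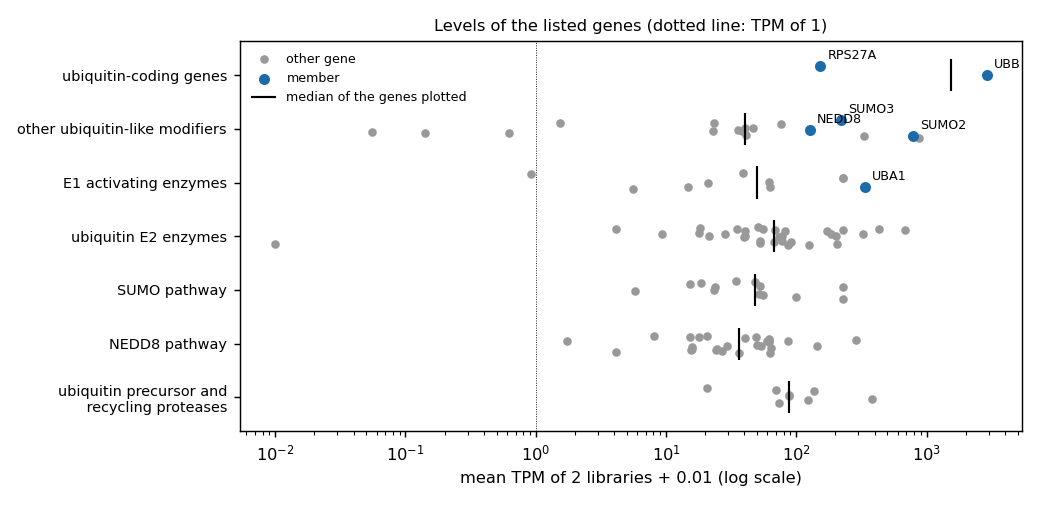
Mean TPM of 2 libraries plus 0.01 (log scale) of genes of the 7 pathway lists, with members in blue and a line at the median of the genes plotted from each list. UBB, SUMO2, UBA1, SUMO3, RPS27A and NEDD8 lie at 2905, 789, 337, 221, 153 and 127 TPM, and UBB is the highest gene plotted.

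The small ribosomal subunit list gave the other context for RPS27A. Of its 32 genes, 29 were called as higher in replicate 1, beside 22.2% of all genes, and RPS24 alone as higher in replicate 2 (log2 ratio 0.05), with a median log2 ratio of -0.36 over the list. RPS27A and RPS26 were those not called, with log2 ratios of -0.08 and -0.25. With the GC trend removed, 0 were called as higher in replicate 2 and 29 as higher in replicate 1, beside 13.4% and 13.2% of all genes. The median log2 ratio of the list was then -0.25, and RPS27A was called at -0.13 (exact binomial test, adjusted p = 0.0288). RPS24 and RPS26 are named after their values were seen, and the difference between RPS27A and the list was not tested. Of 12 heat shock genes, 11 were detected and 5 called in each direction, beside 20.9% and 22.2% of all genes. With library totals 7 were called as higher in replicate 2 and 4 as higher in replicate 1, beside 4624 and 3553 of 19714 genes. With the GC trend removed these counts were 3 and 5, beside 13.4% and 13.2% of all genes. HSPA8, the constitutive HSP70, was the highest of them at 1220 and 1137 TPM, and UBB was 2.57-fold and 2.35-fold above it.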

How the data were processed

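Poly(A)+ RNA libraries were sequenced by the authors with 50 bp reads. The labels give the molecule as genomic DNA, although their protocol describes RNA. The submitters' processing notes name Trimmomatic 0.36, STAR 2.6.1c, RSEM 1.3.1 and hg19/GRCh37.p13, whereas the methods name featureCounts; the columns are those of RSEM. The expected counts deposited by the authors are estimated counts in which multi-mapped reads were shared among genes. The deposited TPM and FPKM values are scaled to transcript length. Posterior SDs and bounds were deposited as well (score, in reads or TPM), and the pooled table was not used.

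Here, expected counts were rounded, and an exact binomial test per gene was conditioned on the summed count, with shares from edgeR 4.0.16 TMM factors and Benjamini-Hochberg adjustment over genes with at least 10 counts. Log2 ratios used a pseudocount of 0.5. The script was tested on simulated data. Levels of genes were compared in TPM as mean and SD of 2 libraries. Positions, GC content and sequences came from GENCODE transcripts of GRCh37, which named 96.1% of identifiers. DESeq2 1.42.0 gave other size factors. GC trends were medians in 50 classes of genes with at least 100 counts, centred on library totals.

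Members and lists were chosen with earlier results of these data known. Named genes were the members, the 3 highest, the lowest and the gene of largest ratio (at least 100 counts) of each list, the 2 nearest genes in level, the highest pseudogene of each member and readthrough genes. Some genes that this rule names are not reported here. Alternatives covered units, posterior means, added copies, scaling, count minimums, GC content, pseudocount, detection thresholds and leaving out each replicate.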

Additional observations from a re-analysis of the deposited data

How the results depend on the processing

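No paired analysis was possible because both libraries belong to 1 group. Without length scaling, in CPM, the log2 difference of SUMO2 over SUMO3 was 1.09 and the share of UBB among the members 48.5%. With the GC trend removed, 5132 genes were called between the libraries (2587 higher in replicate 2, 2545 higher in replicate 1), and SUMO2 was reversed to -0.10. Once edgeR was told to assume a biological coefficient of variation of 0.1, its exact test called 1427 genes (1319 and 108), 12 pathway genes (12 and 0) and 0 members. Leaving out each replicate in turn returned the value of the other library, so it was no further check of these results. The log2 difference of UBB over RPS27A was then 4.11 or 4.38, and that of SUMO2 over SUMO3 was 1.67 or 2.00. The UBB share was 62.3% or 65.7%, and 104 or 106 pathway genes were detected. The order of higher and lower calls over all genes turned with library totals (4624 higher in replicate 2, 3553 higher in replicate 1). Of 114 alternative values, 92 were classed as unchanged, but that class did not require the numbers called in each direction to hold. It includes all genes under library totals, and the pathway genes with the GC trend removed (12 and 51, against 36 and 42). It also includes levels and shares with a replicate left out, which must stay within the spread of 2 libraries. Depth did not limit the members, each with over 1600 counts in each library, but 2 libraries limit every statement on spread.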
